A study of Drosophila melanogaster with 18 samples.

Results

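Among the sites listed for a TRIBE experiment, in which an RNA-binding protein fused to an RNA-editing enzyme marks the mRNAs it touches, in the *Drosophila* larval fat body, 909 of 91502 distinct sites lay off the X chromosome and carried an intermediate share of G reads. The share is the G reads over the sum of A and G reads. The sites were chosen for a pooled G share of at least 5% and under 50% in the 3 4EHP-ADAR libraries, and for a sum of A and G reads of 20 or more in every one of the 6 TRIBE libraries. They are therefore defined by a readout of the 4EHP-ADAR libraries, and that share is given as a description. Calls of a model that compares the constructs support nothing here. Fat bodies of larvae in the third instar carried *dcg-Gal4*, which drives UAS transgenes in the fat body, with either *uas-4EHP-adar* (4EHP-ADAR, 3 libraries) or *uas-4EHPmutant-adar* (4EHP W114A-ADAR, 3 libraries). In both constructs the catalytic domain of ADAR bore a change that raises its activity, and both transgenes were inserted on the second chromosome. Gene levels came from *dcg-Gal4/uas-4EHP RNAi* larvae (*4EHP* RNAi, 3 libraries) and from *dcg-Gal4/+* larvae (control, named w1118 in the labels, 3 libraries). Per the methods, an RNA-seq replicate pooled the fat bodies of several male larvae unless stated otherwise. The TRIBE samples include no fat body without an ADAR fusion.

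4EHP is a relative of the cap-binding factor eIF4E. It binds the mRNA 5′ cap without recruiting the translation machinery and can hold an mRNA in a repressed state. ADAR enzymes deaminate adenosine to inosine, which is read as G after reverse transcription, so that an mRNA touched by a fusion protein keeps a mark in its sequence. The W114A change damages the cap-binding pocket and served as the negative control. An A-to-G difference in the genome gives the same reads as an edited base, and in these RNA reads alone the 2 cannot be told apart.

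Of the 91502 sites, 69874 had at least 20 reads in every library and 58789 of these lay off the X. The other 3 classes of these sites held 56896 sites under 5%, 605 sites from 50 to 95% and 379 sites at 95% or more. The 909 intermediate sites had a median of 86, 73 and 78 reads in 4EHP-ADAR libraries 1, 2 and 3, against 73, 51 and 51 reads in the 4EHP W114A-ADAR libraries. A share measured on so few reads in 1 library is imprecise. The 95% Wilson intervals given for some pooled shares, and the limits given for counts of 0, cover counting error only. The sites lay on 3L (261), 3R (238), 2R (219), 2L (186) and chromosome 4 (5), with 433 on the plus and 476 on the minus strand.

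The 909 sites were not evenly spread between the bounds. From 5 to 10% there were 242 sites and from 40 to 50% there were 302, while the steps between 10 and 40% held 124, 115 and 126 sites. The median pooled G share was 26.5% in 4EHP-ADAR and 11.7% in 4EHP W114A-ADAR, with a median difference of 5.71 percentage points. The median share was 23.7, 29.4 and 28.2% in the 4EHP-ADAR libraries, against 11.8, 10.0 and 11.5% in the 4EHP W114A-ADAR libraries. The 4EHP W114A-ADAR libraries thus carried G reads at most of these sites. Only 74 sites (8.14%) had no G read there, and 631 had G reads in each of the 3 libraries. By comparison, 95.6% of the autosomal sites under 5% had no G read in 4EHP W114A-ADAR. Sites from 50 to 95% had a median of 51.2% in 4EHP W114A-ADAR, and sites at 95% or more had 91.2%. The authors listed sites after comparing these constructs, so the listing favoured a higher share in 4EHP-ADAR, and at 4 of the 909 sites it was not higher.

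**Figure D1:**
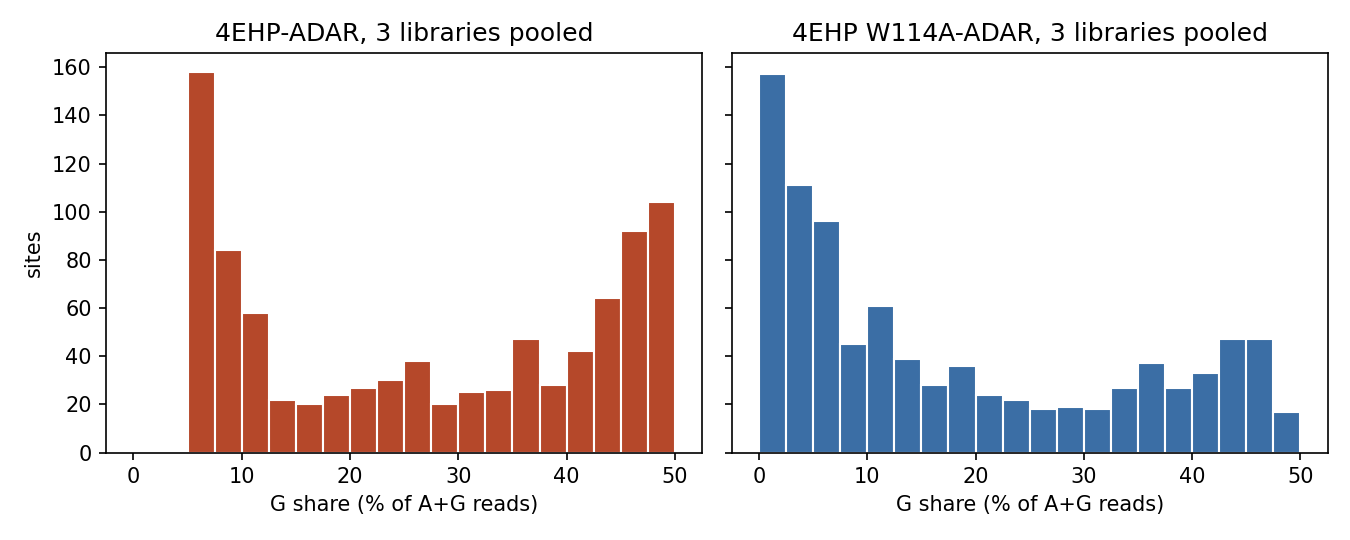
Number of intermediate sites by pooled G share (x axis, percent of A and G reads, steps of 2.5 points) in 4EHP-ADAR (left) and 4EHP W114A-ADAR (right), each pooled over 3 libraries. The 4EHP-ADAR shares pile up near both bounds, with 242 sites from 5 to 10% and 302 from 40 to 50%, and the 4EHP W114A-ADAR shares have a median of 11.7%.

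The median share in 4EHP W114A-ADAR was higher at each higher step of the share in 4EHP-ADAR. It was 2.80% for sites at 5 to 10% in 4EHP-ADAR, 7.45% at 10 to 20%, 10.7% at 20 to 30%, 19.4% at 30 to 40% and 39.4% at 40 to 50%. Because the listing favoured a higher share in 4EHP-ADAR, that share nearly capped the other. The highest share in 4EHP W114A-ADAR was 8.70, 19.4, 29.5, 38.0 and 49.6% in these steps. The rise of the medians is therefore partly set by how the sites were chosen. The gap between constructs was widest in the middle, with median differences of 13.9 and 15.2 points at 20 to 30% and at 30 to 40%. It was 3.70 points at 5 to 10% and 5.44 points at 40 to 50%. A site at 5 to 10% in 4EHP-ADAR cannot lie 10 points above 4EHP W114A-ADAR, so the small gap there is bounded by the step itself. Of the 302 sites at 40 to 50%, 144 were also at 40% or more in 4EHP W114A-ADAR, with medians of 47.4% and 44.6% in 4EHP-ADAR and 4EHP W114A-ADAR. None of the 302 lacked G reads in 4EHP W114A-ADAR, against 42 of the 242 sites at 5 to 10%. The constructs lay within 5 points of each other at 402 sites (44.2%) and were 20 points or more apart at 128. A site under 20% in 4EHP-ADAR could not lie 20 points above 4EHP W114A-ADAR, so these counts depend on the level of the share.

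**Figure D2:**
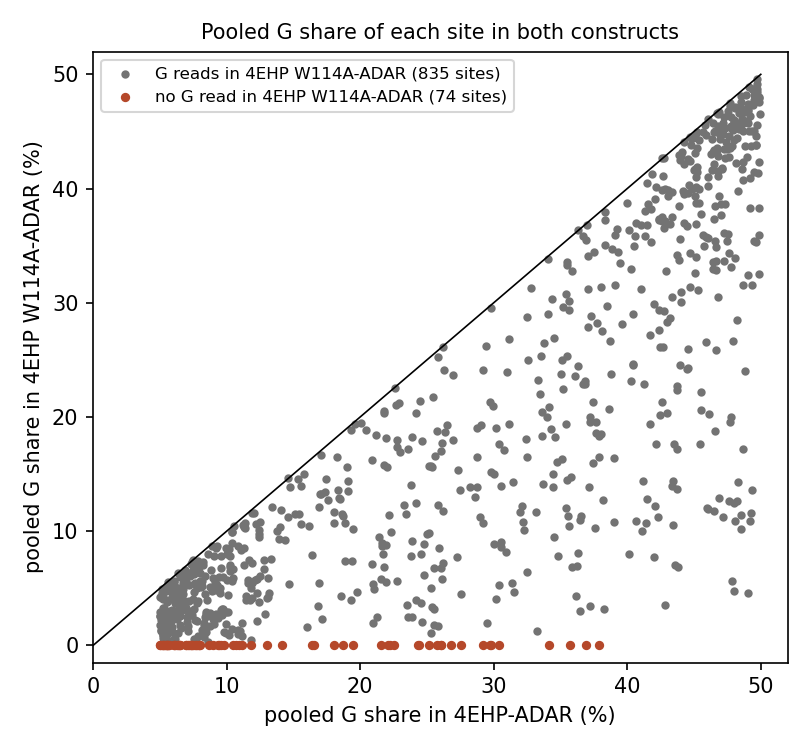
Pooled G share of each of the 909 sites in 4EHP-ADAR (x axis, percent) and in 4EHP W114A-ADAR (y axis, percent), with the line of equal shares. The 74 sites with no G read in 4EHP W114A-ADAR lie along the x axis, and 144 sites from 40 to 50% in 4EHP-ADAR also reach 40% in 4EHP W114A-ADAR.

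Sites next to the bounds show how little separates the members from their neighbours. Just inside 5%, the sites in *CG2816*, *atos* and the overlapping genes *CG44249* and *Snp* stood at 5.00%, on 220, 100 and 140 4EHP-ADAR reads. Just outside, *Galk*, *CG18473* and *mor* stood at 4.97, 4.97 and 4.98%. Just inside 50%, *Alas*, *tweek* and *drk* stood at 49.9, 49.9 and 49.96%, and *CG5861*, *CG17544* and *CG33123* stood outside at 50%, with 92 of 184, 73 of 146 and 94 of 188 reads G.

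The 6 deepest sites ranged from 5.23 to 47.0% in 4EHP-ADAR. The site with the most reads lay at codon base 3 of *CG14488* (2R, position 17767360, dm6, minus strand). It had G shares of 45.2, 47.6 and 47.1% in 4EHP-ADAR, against 47.7, 40.8 and 45.3% in 4EHP W114A-ADAR, on 4100 reads in all. The 2 constructs overlapped there. The second deepest lay at codon base 3 of *dj* (3R, position 7060196), which encodes the sperm tail protein Don juan, with 36.8, 35.5 and 38.6% in 4EHP-ADAR and 35.6, 38.3 and 33.9% in 4EHP W114A-ADAR. The 5′ UTR of *Spn42Da* (2R, position 6878897), which encodes a serine protease inhibitor, behaved otherwise. Its G share was 6.32, 4.29 and 4.85% in 4EHP-ADAR, against 1.00, 0.395 and 0.441% in 4EHP W114A-ADAR, and the constructs did not overlap. Pooled, this was 5.23% (interval 4.28 to 6.38%) against 0.641% (0.349 to 1.18%). The 5′ UTR of *eIF2A* (3L, position 21825033), a translation initiation factor gene, had 12.2, 8.70 and 7.60% in 4EHP-ADAR, against 2.97, 2.23 and 1.71% in 4EHP W114A-ADAR, again without overlap. A 5′ UTR site shared by *fray*, a kinase gene, and *CG7694* (3R, position 18573215) had 21.4, 14.1 and 16.8%, against 15.0, 12.2 and 10.5%. There the lowest 4EHP-ADAR library was below the highest 4EHP W114A-ADAR library. The sixth of the deepest sites, in *CG15705* (2R, position 16281048, codon base 3), had 37.4, 34.6 and 34.9% in 4EHP-ADAR and 29.5, 32.0 and 28.0% in 4EHP W114A-ADAR.

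The 74 sites without G reads in 4EHP W114A-ADAR had a median of 8.84% in 4EHP-ADAR, 29 lay in a 5′ UTR and 20 were at 20% or more. The highest lay in *CG31937* (2L, position 1730457, codon base 3). It had 50, 48.0 and 17.6% in 4EHP-ADAR against 0 of 413 reads in 4EHP W114A-ADAR. With the limit set at 3 reads of the total, as for the other counts of 0, a share of 0.726% remains possible there. Library 3 stood far below the other 2. In *CG11790*, 2 sites lay 14 bases apart (3R, positions 25049339 and 25049353). They had 41.6, 29.4 and 35.4% and 43.2, 28.4 and 38.4% in 4EHP-ADAR, against 0 of 197 and 0 of 168 reads in 4EHP W114A-ADAR (up to 1.52% and 1.79%). The order of the 3 libraries was the same at both sites, and reads spanning both bases count at both. *Sf3b1* (2L, position 568867), which encodes a core splicing factor, had 35.6, 39.5 and 27.5% against 0 of 115 reads (up to 2.61%). *GluProRS* (3R, position 23954205), a tRNA synthetase gene, had 33.5, 12.6 and 38.9% against 0 of 338 reads (up to 0.888%).

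Shares of 1 site varied more between libraries of 1 construct than counting error gives. The variance between the libraries over that of counting alone had a median of 1.80 in 4EHP-ADAR and 1.66 in 4EHP W114A-ADAR. It was above 2 at 45.8% and 40% of the 909 sites. Counting error alone also puts some sites above 2, and how many was not computed here. The ratio is not defined where a construct has no G read, so the 4EHP W114A-ADAR median rests on 835 sites. Among autosomal sites under 5% the medians were 1.09 over all 56896 sites in 4EHP-ADAR and 1.05 over only 2521 sites in 4EHP W114A-ADAR. Their median pooled share in 4EHP-ADAR was only 0.339%. With so few G reads the ratio cannot show a spread, so neither value is a comparison for the intermediate sites. Sites from 50 to 95% had much the same medians as the intermediate sites, 1.80 and 1.68, and were above 2 at 48.1% and 44.0%. The spread in 4EHP-ADAR was widest relative to counting at 20 to 30% (2.82) and narrowest at 40 to 50% (1.25). In 4EHP W114A-ADAR it was 1.78 and 2.08 for the same sites. G reads appeared in every 4EHP-ADAR library at 851 of the 909 sites. At 5 sites, a 4EHP-ADAR library had no G read while another reached 25% or more, and this was so at 14 sites for the 4EHP W114A-ADAR libraries.

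The largest spread was at codon base 3 of *CG4849* (3R, position 27966580), with 6.67, 61.5 and 8.00% in 4EHP-ADAR on 30, 39 and 25 reads. It had 0 of 81 reads in 4EHP W114A-ADAR (up to 3.70%). A single library thus carried 24 of its 28 G reads. The site in *mat* (3L, position 903365) had 2.69, 50.5 and 29.4% in 4EHP-ADAR, against 21.7, 20.6 and 20.0% in 4EHP W114A-ADAR, where the libraries lay close together. *Sf3b3* (3L, position 832079), a splicing factor gene, had 54.1, 6.45 and 26.9% against 26.8, 22.8 and 14.8%. *Prp6* (3L, position 18908342), which encodes a protein of the spliceosome, had 18.8, 46.3 and 58.3% against 12.9, 0 and 8.33%. *CG8841* (2R, position 12323500) had 73.2, 27.0 and 39.6% against 29.2, 38.5 and 46.4%. In the 3′ UTR of *Baldspot* (3L, position 16649360), a fatty acid elongase gene, the shares were 43.4, 6.67 and 6.67% against 0, 16.7 and 20.0%. The library that stood apart was not the same one at these 6 sites.

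The order of the libraries depended on the level of the share. At sites of 5 to 20%, the median share was 6.69, 7.16 and 11.1% in 4EHP-ADAR, with library 3 highest, against 4.17, 2.33 and 2.93% in 4EHP W114A-ADAR. At sites of 40 to 50%, the 4EHP-ADAR medians were nearly level at 46.0, 46.9 and 46.4%. The 4EHP W114A-ADAR medians there were 36.7, 39.1 and 42.0%, and the lower quartile was 18.1% in library 1 against 30.2 and 33.3% in libraries 2 and 3. Library 1 was the lowest of the 3 4EHP W114A-ADAR libraries at 139 of these 302 sites (46.0%), library 2 at 104 and library 3 at 58, with 1 tie. What the libraries' larvae differed in was not tested.

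Intermediate sites lay more often in 5′ UTRs than the other classes and, within coding sequence, more often at codon base 3 than the sites under 5%. Of the 909, 546 (60.1%) lay in coding sequence, 173 (19.0%) in a 5′ UTR, 122 (13.4%) in a 3′ UTR, 24 in a non-coding exon and 18 in an intron. The remaining 26 lay in genes that the annotation used does not list. In a 5′ UTR lay 11.5% of the sites under 5%, 5.95% of those at 50 to 95% and 7.92% of those at 95% or more. Within the intermediate range the 5′ UTR share went down with the G share, through 38.4, 25.8, 12.2, 11.1 and 6.62% in the 5 steps. The coding share went up over the same steps, through 39.3, 39.5, 65.2, 67.5 and 80.1%. These shares are descriptions over sites, which are not independent within a gene.

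The codon base of coding sites also differed along the range. Codon base 3, the last base of a codon, is often free to change without changing the amino acid. It held 376 coding sites (69.1%), against 91 at base 1 and 77 at base 2. Among coding sites under 5%, codon bases 1, 2 and 3 held 33.5, 44.7 and 21.8%. Sites at 50 to 95% and at 95% or more held 78.4 and 79.1% at base 3. The count of positions was set on coding sites at 50% or more by this same share, so it is no separate finding. Step by step from 5 to 50%, base 3 held 40.4, 53.1, 77.3, 72.9 and 79.7%.

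**Figure D3:**
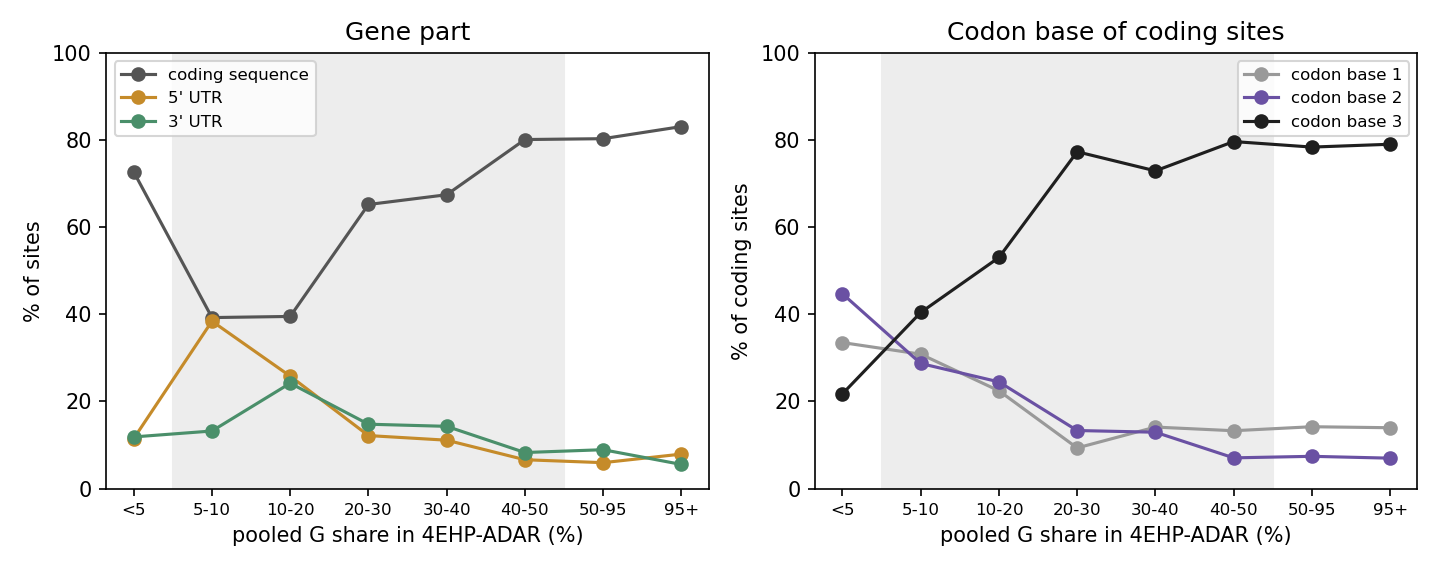
Share of autosomal sites in coding sequence, 5′ UTR and 3′ UTR (left, percent of sites) and share of coding sites at each codon base (right, percent of coding sites), by pooled G share in 4EHP-ADAR (x axis). The shaded steps are the 909 intermediate sites, where codon base 3 holds 40.4, 53.1, 77.3, 72.9 and 79.7% of coding sites and the 5′ UTR share goes down through 38.4, 25.8, 12.2, 11.1 and 6.62%.

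The G share in the 2 constructs differed by gene part. Sites in 5′ UTRs had a median of 9.33% in 4EHP-ADAR and 3.21% in 4EHP W114A-ADAR, with a median ratio of the W114A to the 4EHP-ADAR share of 0.341. Coding sites had 36.8% and 18.6%, with a median ratio of 0.710, and 3′ UTR sites had 18.9% and 9.95%, with a median ratio of 0.720. Of the 5′ UTR sites, 125 of 173 (72.3%) were under 20%, against 144 of 546 coding sites (26.4%). Sites at codon base 3 had medians of 40.6% and 25.6%, and sites at base 2 had 19.6% and 7.84%.

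The 909 sites lay in 750 genes. A single site was found in 595 genes, 2 in 123, 3 in 24, 4 in 6 and 6 in 2 genes, and 38 sites lay in more than 1 listed gene. Of 904 pairs of neighbouring sites on a chromosome, 53 were within 100 bases and 132 within 1000. Neighbours in the same gene had closer G shares than neighbours in different genes. In 188 such pairs the median gap was 4.72 points in 4EHP-ADAR and 4.37 points in 4EHP W114A-ADAR, against 12.3 and 9.59 points in 716 pairs of neighbours in different genes. The gap in the difference between constructs was nearly the same in both kinds of pair, with medians of 4.30 and 4.57 points. That difference correlated with r = 0.64 across same-gene pairs and 0.23 across the others, as a description. Same-gene neighbours share the transcript and the libraries and lay a median of 402 bases apart, and reads covering both were not counted.

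**Figure D4:**
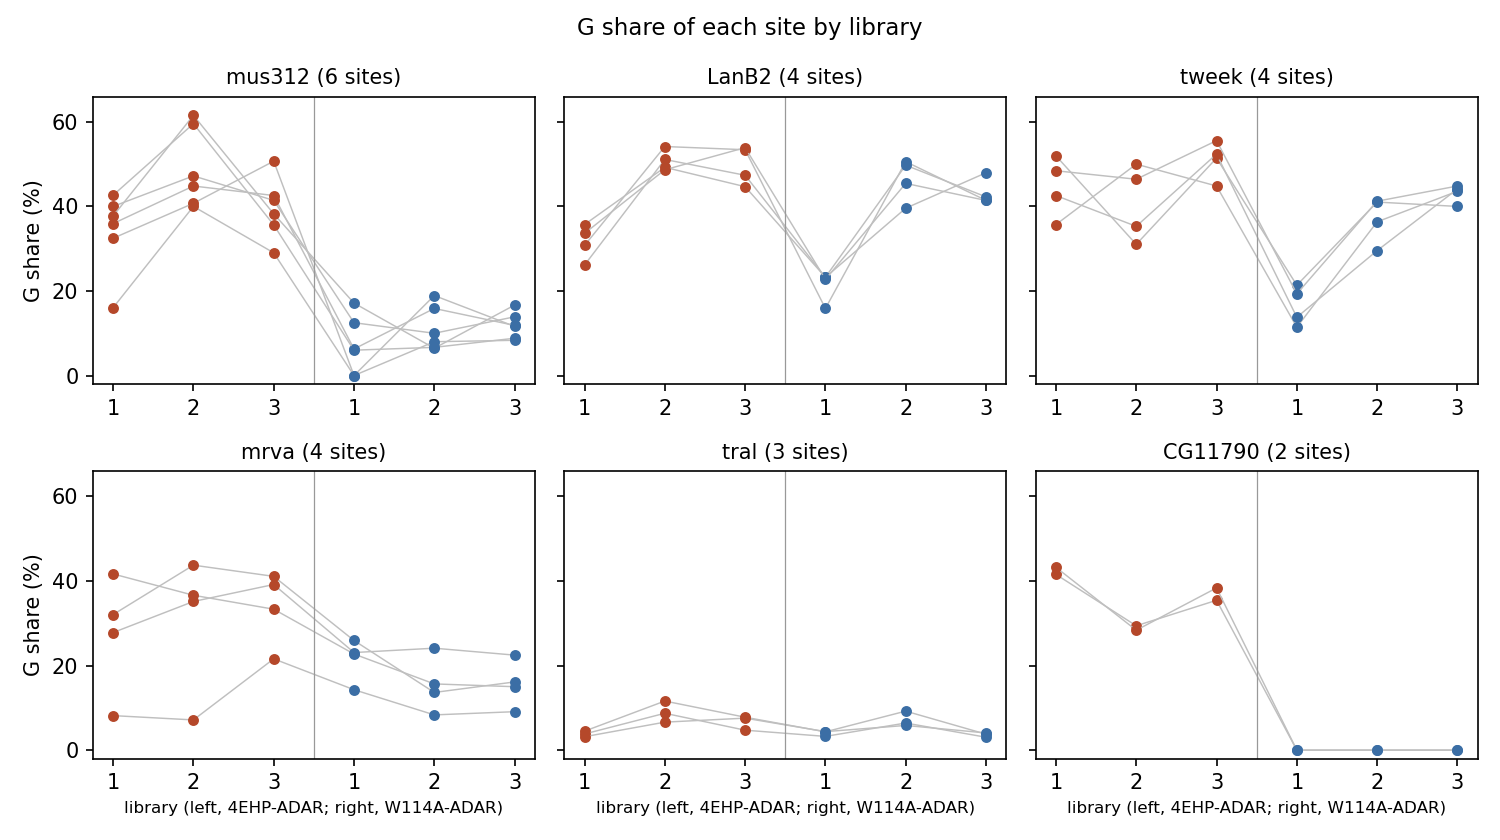
G share (y axis, percent) of each intermediate site in 6 genes by library (x axis, 4EHP-ADAR libraries left of the line, 4EHP W114A-ADAR libraries right of it), with 1 grey line per site. Sites of *mus312* are all lower in 4EHP W114A-ADAR, sites of *LanB2* and *tweek* are lowest in library 1 within 4EHP W114A-ADAR, sites of *tral* stay below 12%, and the 2 sites of *CG11790* have no G read in 4EHP W114A-ADAR.

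The most sites, 6 each, were in *mus312*, which encodes a scaffold for DNA repair nucleases, and in *CG42307*, which the annotation places over the same interval (3L, 7329132 to 7333471, plus strand). The 2 genes share all 6 sites, so reads could not be assigned to either. All 6 lay in coding sequence, 4 of them at codon base 3. Pooled shares ran from 25.3 to 43.8% in 4EHP-ADAR, against 5.00 to 13.7% in 4EHP W114A-ADAR. The deepest of them, at position 7329265, had 35.9, 44.8 and 42.6% against 6.28, 15.9 and 11.9%. The lowest 4EHP-ADAR library of this site lay well above the highest 4EHP W114A-ADAR library. The gene next to it, *mrva* (3L, minus strand), had 4 sites, with pooled shares of 12.2 to 37.9% in 4EHP-ADAR and 10.6 to 23.2% in 4EHP W114A-ADAR. Its 5′ UTR site at position 7328609 had 27.8, 35.2 and 39.2% against 23.1, 24.1 and 22.5%.

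*LanB2*, which encodes the laminin gamma chain of the basement membrane, had 4 sites, all at codon base 3 (3L, positions 9618726 to 9622098). Pooled shares were 37.1 to 43.7% in 4EHP-ADAR and 32.7 to 36.8% in 4EHP W114A-ADAR. The site with the most reads, at position 9621693, had 35.7, 49.3 and 44.7% against 23.3, 49.8 and 42.3%. All 4 sites were lowest in library 1 of each construct. *tweek*, known for its role at the fly synapse, also had 4 sites at codon base 3 (2L). Its deepest, at position 16915431, had 48.4, 46.4 and 55.6% in 4EHP-ADAR, against 19.3, 41.2 and 44.8% in 4EHP W114A-ADAR. Here the 4EHP-ADAR libraries were close together and library 1 of 4EHP W114A-ADAR stood below the other 2, as it did at the other 3 *tweek* sites.

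In *Svil*, the supervillin gene, which encodes an actin-binding protein, 4 sites ranged from 7.18 to 47.2% in 4EHP-ADAR and from 3.90 to 44.1% in 4EHP W114A-ADAR. The deepest (3L, position 2463239, codon base 1, 2089 reads) had 51.3, 44.3 and 46.7% against 52.2, 32.5 and 21.3%. *PAPLA1*, a phospholipase gene, had 4 sites within 447 bases on 2L, at 39.1 to 46.9% in 4EHP-ADAR and 35.4 to 39.4% in 4EHP W114A-ADAR. Its deepest, at position 8138826, had 51.4, 43.8 and 42.3% against 31.5, 33.3 and 43.2%. *pins*, which encodes a regulator of spindle orientation, had 4 sites within 748 bases on 3R, at 17.0 to 31.4% against 5.44 to 20.6%. Its site at position 27584941 had 37.7, 33.8 and 20.7% against 13.0, 0 and 4.26%, whereas the site at 27584710 had 23.6, 29.0 and 10.9% against 15.9, 30 and 11.9%, so sites of 1 gene were not always alike.

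*tral*, which encodes Trailer hitch, a component of repressed mRNPs, had 3 low sites on many reads (3L). The 5′ UTR site at position 12515110 had 4.49, 11.6 and 7.78% in 4EHP-ADAR, against 4.33, 9.22 and 3.77% in 4EHP W114A-ADAR. The 5′ UTR site at 12515284 had 3.82, 8.72 and 4.72% against 3.25, 6.41 and 3.05%, and the coding site at 12516598 had 3.17, 6.62 and 7.57% against 4.38, 5.84 and 4.07%. The constructs overlapped at all 3 sites, and both 5′ UTR sites were highest in library 2 of each construct. *CG17271* had 2 coding sites 18 bases apart (3R, positions 20820229 and 20820247). They stood at 11.9 and 29.8% pooled in 4EHP-ADAR and at 11.6 and 29.5% in 4EHP W114A-ADAR, on 1902 and 1852 reads. Its other site, in the 3′ UTR, stood at 10.4 and 8.94%.

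The fly *Adar* gene is known for editing neuronal transcripts of ion channels and synaptic proteins. Of 22 such genes, 9 had a listed site and 5 had autosomal sites with enough reads, 68 sites in all. Of these, 64 were under 5% and 4 were intermediate, 2 each in *lap* and *Syt1*. *Atpalpha*, the sodium pump gene, had 23 sites and none above 1.70%, *unc-13* had 6 with at most 2.04% and *GluClalpha* had 2 with at most 0.510%. The 2 sites of *lap*, which encodes a clathrin assembly protein, lay in its 5′ UTR, 52 bases apart (3R, plus strand). The site at position 7187055 had 20.7, 22.9 and 21.9% in 4EHP-ADAR, against 13.0, 8.92 and 2.88% in 4EHP W114A-ADAR. It was nearly level over the 4EHP-ADAR libraries and did not overlap the other construct. Pooled, this was 21.7% (interval 18.6 to 25.1%) against 8.95% (6.75 to 11.8%). The site at 7187003 had 0, 11.4 and 10.3% on 50, 35 and 29 reads in 4EHP-ADAR, against 0 of 92 reads in 4EHP W114A-ADAR (up to 3.26%).

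The 2 sites of *Syt1*, the synaptic vesicle calcium sensor synaptotagmin, did not separate the constructs. The intronic site (2L, position 2794576, minus strand) had 25.6, 16.7 and 25% in 4EHP-ADAR, against 20.8, 25.7 and 6.90% in 4EHP W114A-ADAR. The 3′ UTR site at 2793172 had 4.43, 5.41 and 19.5% against 5.56, 11.1 and 8.33%. Depth there was 193 and 353 reads in all, so differences of a few points were not detectable. Which of these bases the fly's own ADAR edits was not tested.

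Intermediate sites made up 1.55% of the 58789 autosomal sites with enough reads, and groups of genes are set beside that share. Storage, lipoprotein and lipid genes of the larval fat body had 3 intermediate sites of 156. *Apoltp*, a lipid transfer lipoprotein gene, had 2 (2L). The site at position 9651671 had 45.3, 52.4 and 39.2% in 4EHP-ADAR, against 29.6, 50.98 and 45.5% in 4EHP W114A-ADAR, and the site at 9652409 had 47.7, 42.9 and 41.1% against 18.6, 55.2 and 42.5%. *ACC*, the acetyl-CoA carboxylase gene of fatty acid synthesis, had 1 (2R, position 7977929), with 39.3, 47.5 and 45.5% against 20.5, 53.5 and 41.9%. At all 3, library 1 was the lowest in 4EHP W114A-ADAR.

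Ribosomal protein genes had 4 of 85. In the 3′ UTR of *RpL37-2* the constructs were level, at 37.8, 45.2 and 52.3% against 47.1, 53.0 and 36.4%. The 5′ UTR of *RpS30* had 11.7, 5.17 and 7.35% against 7.95, 0 and 3.41%. *RpS29* and *RpL29* stood at 11.9 and 6.98% pooled in 4EHP-ADAR, against 7.25 and 3.30% in 4EHP W114A-ADAR. Genes of cap binding and translational repression had 5 of 418, 3 of them in *tral*. The other 2 were in the 5′ UTR of *eIF4G1* (chromosome 4, position 930561), the scaffold of the cap-binding complex, with 6.90% against 3.93%, and in *brat*, a translational repressor, with 5.23% against 3.30%.

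Of the markers of other cells, hemocyte genes had 2 of 91. The 5′ UTR of *He*, a hemocyte surface protein gene, had 6.20, 8.11 and 9.86% in 4EHP-ADAR against 0 of 209 reads in 4EHP W114A-ADAR (up to 1.44%). *Pxn*, an extracellular matrix peroxidase gene, had 27.5, 35.1 and 21.8% against 9.38, 25 and 11.1%. Testis genes had 1 of 64, the *dj* site above. Neuron markers had 2 of 24, both in *Syt1*, while muscle markers had 0 of 21 and gut and salivary markers 0 of 5.

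Along the chromosomes, the difference between constructs was large in several stretches. The 2 described first were picked with these data in view. In the first 2.1 Mb of 2L, 16 sites had medians of 24.7% in 4EHP-ADAR and 0% in 4EHP W114A-ADAR, and 11 of them had no G read in 4EHP W114A-ADAR. They include the sites of *dock*, *capt*, *Sf3b1* and *CG31937* and 9 of the 20 intermediate sites that reached 20% with no G read in 4EHP W114A-ADAR. Not every site there was so. In *CG4238*, at position 2029364, the shares were 46.0% and 41.0%. Within 1.5 Mb of *Nelf-E* on 3L, 52 sites had medians of 38.5% and 14.4%, with a median difference of 15.0 points, and *mus312*, *mrva* and *CG8560* lie there. The other 841 sites had 25.9% and 11.7%, with a median difference of 5.52 points, but they include stretches with differences as wide. On 3R, the 3 windows of 1 Mb between 25 and 28 Mb held 12, 6 and 20 sites with median differences of 19.5, 19.9 and 20.0 points, and the window from 30 to 31 Mb held 10 sites with 19.2 points. The window from 18 to 19 Mb of 3L held 14 sites with 20.0 points. From 23 to 24 Mb of 3R, 7 of 13 sites had no G read in 4EHP W114A-ADAR. A wide gap was thus not particular to the 2 stretches named first, and what the stretches have in common was not tested.

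Fitted over all 69874 sites, a quasi-binomial model called 65 sites at an adjusted p under 0.05 (0.093%), all higher in 4EHP-ADAR, and 19 of these were intermediate sites, in 18 genes. Since the rule used the 4EHP-ADAR shares and the sites were listed on the same contrast, nothing is read from these counts. In 307 of the 909 sites (33.8%) every 4EHP-ADAR library lay above every 4EHP W114A-ADAR library, a count that the rule likewise bears on. Over all 69874 sites this was so for 1.43%. It was so for 31.6% of the autosomal sites at 50 to 95% and 28.2% at 95% or more, against 0.520% of those under 5%. Such a separation was thus not particular to the intermediate sites. The 19 include a site in the 3′ UTR of *dock*, which encodes an SH2 and SH3 adaptor (2L, position 832418). It had 30.6, 29.1 and 26.9% in 4EHP-ADAR against 0 of 352 reads in 4EHP W114A-ADAR. *capt*, which encodes an actin-binding protein (2L, position 1152651), had 23.5, 32.8 and 27.5% against 0 of 440 reads. *CG8560* (3L, position 7402967) had 41.7, 44.8 and 43.3% against 12.2, 10.5 and 9.03%, a narrow spread in both constructs. In the 5′ UTR of *CG5902* (3R, position 23987290), the shares were 31.2, 15.5 and 17.2% against 0 of 1176 reads, and in *KrT95D* (3R, position 23999479) 21.5, 13.1 and 19.5% against 0 of 404. With 1 library left out, 0 to 4 of the sites were called.

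RNA-seq of the libraries labelled *4EHP* RNAi and of their controls gave the levels of the genes that hold these sites, which had no part in choosing them. The targeted transcript, *eIF4EHP*, was at 17.0, 10.6 and 13.4 CPM after scaling in *4EHP* RNAi and at 19.9, 19.8 and 11.3 in control (log2 fold change −0.28, adjusted p = 0.732 by limma). A lower level was therefore not shown for the libraries labelled *4EHP* RNAi. After scaling, the overlap came from control replicate 3, while all 3 *4EHP* RNAi libraries lay below control replicates 1 and 2. This order depends on the scaling. In CPM as deposited, *4EHP* RNAi replicate 1 stood at 21.379 and control replicate 2 at 21.258. Of the 750 genes, 739 were matched in the RNA-seq table and 678 had a mean of at least 5 CPM. No gene of 8584 was called by limma at an adjusted p under 0.05 (0%), and so none of the 678. At an unadjusted p under 0.05 there were 106 of the 678 and 852 of the 8584. The edgeR quasi-likelihood test also called none and DESeq2 called 89 of the 678, 26 higher and 63 lower, at a background of 8.71%. Over all 8584 genes, DESeq2 called 341 higher and 407 lower. Control replicate 3 stood apart, with a scaling factor of 0.49 against 1.07 to 1.40 in the other 5 libraries and 7853 genes over 1 CPM against 10370 to 10719. Without it, limma called 59 of 683 host genes, 41 higher and 18 lower in *4EHP* RNAi, at a background of 6.57%. Over all 8723 genes tested in that setting, 461 were called higher and 112 lower.

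The libraries separated more often downward for the host genes than for other genes. All 3 *4EHP* RNAi libraries lay below all 3 control libraries for 136 of the 678 (20.1%), against 11% of all 8584 genes. The same held for 10.7% of the 5635 other genes with an autosomal TRIBE site of enough reads. They lay above all controls for 50 (7.37%), against 7.78% of all genes. Without control replicate 3, the share below was 30.2% of the hosts against 21.9% of all genes, and the share above was 18.6% against 20.6%. Among hosts of sites at 5 to 20%, 25.4% lay below, against 17.9% at 20 to 40% and 17.3% at 40 to 50%. Those 3 shares were 30.7, 32.1 and 30.9% without control replicate 3. On the log2 scale the median fold change was −0.15 for the hosts and 0.15 for all genes, or −0.14 and −0.01 without that library. These are descriptions, since the genes were not drawn independently of their level.

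Markers listed for other cells differed between *4EHP* RNAi and control in some sums and overlapped in others. The 10 hemocyte markers summed to between 1048 and 1234 CPM after scaling in *4EHP* RNAi, against 198 to 706 in control. *Col4a1*, the collagen gene that led this list, had 619, 827.5 and 751 against 67.7, 171 and 287. Which cells made it was not tested. The other 9 summed to between 395 and 429, against 130 to 419, and overlapped. The 10 neuron markers summed to between 108 and 149, against 428 to 1587, and nearly all of this gap was *Syt1*. The other 9 neuron markers summed to between 35.7 and 49.6, against 53.5 to 68.2. The 9 gut and salivary markers summed to between 314 and 478, against 30.6 and 13.0 in control replicates 1 and 2 and a sum above every other library in control replicate 3. The 9 testis markers summed to between 721 and 931, against 53.4 to 1026, the low value being control replicate 3. The 12 muscle markers summed to between 128 and 236, against 45.5 to 120. The 19 fat body genes were above 0 in every library and summed to between 106500 and 181400, against 179500 to 737900. *Fbp1*, which led this list, had 17250, 6511 and 19330 against 97580, 104400 and 298800. The other 18 summed to between 99990 and 164200, against 81920 to 439100, and overlapped. No defining marker was at 0 in every library of a group by these sums, and their part in the host gene values was not tested. In bulk RNA, fewer cells of a type and less RNA per cell cannot be told apart.

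Single host genes show the range. *Syt1* had 99.4, 72.7 and 79.5 CPM after scaling in *4EHP* RNAi and 360, 379 and 1533 in control, and the groups did not overlap (log2 fold change −2.82 ± 0.62 SE, adjusted p = 0.196 by limma, n = 3 each). It is also the gene that led the neuron markers summed above. *lap* had 63.7, 20.8 and 31.8 CPM against 92.4, 64.5 and 103, all below the controls (−1.26 ± 0.49, adjusted p = 0.462 by limma). *tral* had 108, 67.1 and 69.6 against 119, 102 and 198, and 1 of its *4EHP* RNAi libraries lay above a control library. *LanB2* had 134, 162 and 160 against 56.2, 70.3 and 178, and only control replicate 3 lay above the *4EHP* RNAi libraries. *mus312* and *CG42307* did not reach the mean of 5 CPM.

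The host genes with the lowest p values, chosen after their values were seen, included *Arc1*, which encodes a capsid-forming protein, and the lipoprotein gene *Apoltp*. *Arc1* had 1598, 1623 and 1691 CPM in *4EHP* RNAi against 23.9, 28.7 and 117 in control (log2 fold change 5.21 ± 0.63 SE, adjusted p = 0.0822 by limma). Its coding site (2R, position 14359467) had 11.6, 5.33 and 11.1% G in 4EHP-ADAR against 9.33, 4.97 and 5.33% in 4EHP W114A-ADAR. *Apoltp* had 427, 330 and 271 CPM against 61.1, 68.5 and 89.4 (2.21 ± 0.34, adjusted p = 0.112 by limma). *CDase*, the ceramidase gene, had 3.05, 3.91 and 5.26 CPM against 18.1, 22.3 and 46.1 (−2.47 ± 0.44, adjusted p = 0.143 by limma). None of the 3 passed the threshold, while without control replicate 3 their adjusted p values were 0.000227, 0.00614 and 0.00905.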

How the data were processed

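polyA RNA from fat bodies of larvae in the third instar was sequenced in 18 libraries, of which the 6 TRIBE libraries and the 6 libraries of *4EHP* RNAi and its control are used here. For TRIBE, FLEXBAR, HISAT2 and JACUSA were used by the authors for trimming, alignment and site calling, and they deposited A and G read counts per site and library, with a binding score that is a log-likelihood ratio between the constructs. The score was not used. The deposited RNA-seq values are CPM, reads per gene scaled to a common total. The labels name dm6, STAR, featureCounts and DESeq2. The TRIBE columns are headed with short names that no label explains. Their construct was taken from the study's own table of the same sites, and no source ties their numbers to samples, so library 1 to 3 are column names only.

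Listed positions count from 0 and 1 was added: among coding sites with a pooled G share of at least 50% in 4EHP-ADAR, on all chromosomes, codon base 3 then held 78.6 and 77.8% on the plus and minus strands. Gene parts came from the Ensembl BDGP6.54 annotation. The quasi-binomial model used limma 3.58.1 (squeezeVar, dispersion floored at 1, prior from sites whose binomial variance reached 5) with Benjamini-Hochberg adjustment over all sites. Gene levels were tested with limma on log2(CPM + 1) after a median-of-ratios factor (R 4.3.3, edgeR 4.0.16 and DESeq2 1.42.0 on recovered reads as alternatives). All CPM values came out as whole reads within 0.1 read, with 59919651 to 92604208 reads on genes per library. Fits were tested on simulated data. Wilson intervals are at 95%, and at 0 reads the limit is 3 reads of the total. Named sites are those of the 10 genes with most sites, the deepest, the most variable, those next to the bounds, those with the lowest p and those in the gene lists. The sites and lists were chosen with earlier results of these data known. Replicates are separate pools of larvae per the study's methods for RNA-seq, which do not say so for TRIBE. Sequences around the sites and the *NELF-E* RNAi libraries were not analysed here.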

Additional observations from a re-analysis of the deposited data

How the results depend on the processing

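The number of sites and their G share in 4EHP W114A-ADAR depend on the depth asked for. A minimum of 10 reads per library gave 1459 sites with a median of 10.3% in 4EHP W114A-ADAR, and a minimum of 50 reads gave 371 with 14.0%. Asking for 5 to 50% in each 4EHP-ADAR library gave 476 sites. With 1 library left out, there were 875 to 1021 sites and the median was 8.66 to 13.9%. The 19 sites called between constructs, of 65 called over all sites, became 147 of 489 with limma on the empirical logit, 376 of 1161 with precision weights (chosen after seeing the data) and 264 of 750 with Fisher's exact test on pooled reads. On simulated data the empirical logit without weights recovered no change and the quasi-binomial model nearly all. That simulation had counting error only, without the extra spread between libraries seen at the 909 sites, so it does not rank the fits here. With 1 library left out, 0 to 4 were called, of 0 to 37 over all sites, 0 of them without 4EHP-ADAR library 2. Host genes called by limma numbered 6 with CPM as deposited, of 91 called among 8584 genes, 1 of 14 with a pseudocount of 5 and 59 of 573 without control replicate 3, and DESeq2 called 89 of 748. The replicate number as a block called 0. Same-numbered *4EHP* RNAi and control libraries had correlations of 0.12, 0.011 and −0.167. No pairing by number was seen, but with so few libraries and control replicate 3 apart, these values cannot exclude it. For the TRIBE columns, the column number as a replicate block (added after seeing the data) called 18 of the 909 sites, of 81 over all sites, and 13 of the 18 are among the 19. Same-numbered columns of the constructs had correlations of −0.059, 0.013 and 0.00051 over the 909 sites. No pairing by column number was seen, and with so few libraries and reads these values cannot exclude it. The bases around the sites were not run as an alternative.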
